A study of Oryza sativa Japonica Group with 3 samples.

Results

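ELF3 domains on the chromosome arms of rice are places where at least 3 separate ELF3-bound regions lie close together. They were found in a list of ELF3 peaks from chromatin immunoprecipitation followed by sequencing (ChIP-seq). Peaks with the same start and end were taken as 1 region, and regions with gaps of 5 kb or less were joined to 1 locus. Loci of 3 or more regions were kept where the highest summit lay more than 5 Mb from the centromere. Of 502 ELF3 loci, 79 met this rule, and they contained 301 of the 824 ELF3 regions and 554 of the 1304 ELF3 summits. The count of regions, their positions and the fold enrichment that chose the summit all come from the ELF3 library, so the members were chosen by ELF3 values, and these are given as a description, without a test. The LUX library was not used to choose the domains.

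The ELF3 group is 1 library precipitated with a custom antibody from wild-type Nipponbare, a japonica cultivar. The LUX group is 1 library precipitated with an anti-MYC antibody from plants with a genomic OsLUX construct under its own promoter, fused to a c-MYC tag. The labels do not say how many lines of the construct were used or whether these plants still carried untagged LUX. Both are set against 1 input library, which is unprecipitated DNA of the wild type. All plants were 14-day-old seedlings raised at 28 °C under a short photoperiod (10 h of light, 14 h of darkness), and 20 whole plants per genotype were pooled at zeitgeber time 14 (ZT14), in the dark. Because each group is 1 library, no spread between replicates can be given, and whole seedlings do not show in which cells a protein was bound. No precipitation from plants without ELF3 or without the tag was analysed here, and specificity of the antibodies was not tested. The series' design text names an elf3-1 line, which is likewise not analysed here.

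The evening complex is a repressor of transcription in the plant circadian clock that assembles around dusk. Within it, LUX binds DNA through a MYB-type domain, and ELF3 is the scaffold that holds the complex together. In Arabidopsis the third member is ELF4, and targets of the complex include genes of the clock and of growth. ChIP-seq of a scaffold protein reads its presence on chromatin through crosslinks that can pass through its partners. A peak therefore shows where the protein was near DNA and does not show direct contact.

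The 79 domains rested on 18357646 ELF3 tags and 14797701 input tags after filtering, and the LUX peaks on 20173598 tags. Fold enrichment is the authors' value for each summit, computed by the peak caller as scaled tags plus 1 over local input background plus 1. ELF3 tags were scaled by 0.806 and LUX tags by 0.734 to the depth of the input library, and tag numbers printed beside a fold enrichment are before scaling. Intervals beside a fold enrichment are exact 95% Poisson intervals on the tags of the summit, and those beside a share are exact 95% Clopper-Pearson intervals. Both cover counting error only. Positions are on the build IRGSP-1.0.

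The domains were short and most had few members. A domain spanned 4959 bp at the median, with 1586 bp as the shortest and 12151 bp as the longest, and 5 domains were 10 kb or longer. Of the 79 domains, 44 held 3 regions, 19 held 4, 9 held 5, 3 held 6, 2 held 7 and 2 held 8. ELF3 regions covered 57.8% of a domain's length at the median, and the share ran from 14.4% to 91.1%. Summits numbered 6 per domain at the median and 24 at most.

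At the medians, the highest region of a domain was taller and wider than the other regions. Its fold enrichment was 2.02 times that of the second region at the median (lowest 1.03, highest 6.28). The highest region of a domain had a median fold enrichment of 7.95 (lowest 2.56, highest 17.8, n = 79), and the other regions had a median of 2.69 (lowest 1.99, highest 9.38, n = 222). The highest regions were 1090 bp wide at the median and held 2 summits, and the others were 368.5 bp wide and held 1. Because the highest region was picked for its enrichment, the order of these medians follows from the choice. Of the 301 regions, 30 (9.97%) reached a fold enrichment of 10, against 6.43% of all 824 regions, and each of the 30 was the highest of its own domain.

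**Figure D1:**
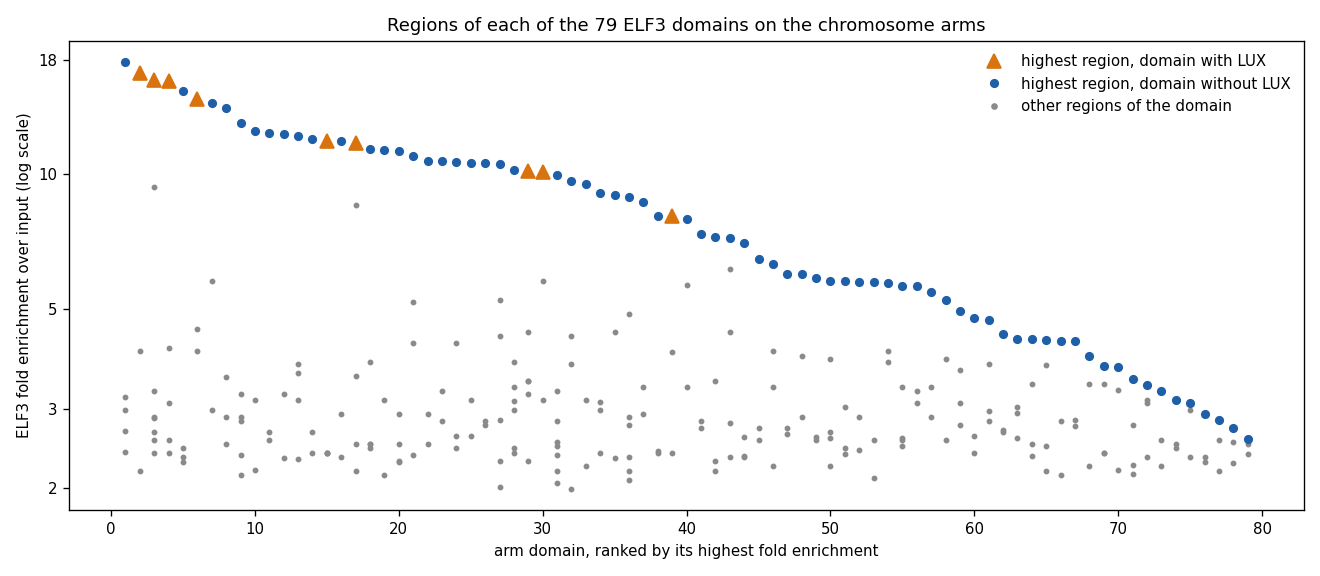
ELF3 fold enrichment over input on a log scale for every region of the 79 arm domains, ranked by the highest region. Large symbols are the highest region of a domain, orange triangles where the domain holds a LUX region and blue circles where it holds none, and grey dots are the other regions. Grey dots lie mostly between 2 and 5 along the whole ranking, whereas the highest regions run from 17.8 to 2.56.

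The low regions decide whether a locus counts as a domain. Of the 222 other regions, 45 (20.3%) reached 10 on the −log10 q scale of the peak caller, against 72 of the 79 highest regions (91.1%) and 44.9% of all 824 regions. With the highest regions included, 117 of the 301 domain regions (38.9%) did, against 202 of 427 arm regions outside domains (47.3%). Exactly 1 region reached that level in 37 domains, 2 regions in 26 domains and 3 or more in 9 domains, and in 7 domains no region reached it. When only regions at that level were joined, 9 arm domains were left. The loci just outside the rule, with 2 regions on an arm, had a highest fold enrichment of 5.67 at the median (n = 71), and the domains just inside, with 3 regions, had 6.23 (n = 44). At the centromere limit, the nearest domain inside lay 5.14 Mb away on chromosome 3 from 24534193 to 24539146, and the nearest outside lay 4.84 Mb away on the same chromosome from 24241094 to 24246916, with fold enrichments of 8.07 and 15.3.

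Neighbouring regions of a domain were close. The gap between them was 478.5 bp at the median (n = 222 gaps), with 77 bp as the shortest and 4996 bp as the longest. In 113 gaps (50.9%) it was 500 bp or less, and in 57 (25.7%) it was no longer than the 202 bp to which ELF3 tags were extended. In 60 domains every gap was 2 kb or less, and 7 domains contained a gap over 4 kb. Split at those gaps, 3 of the 7 would still hold 3 regions together and 4 would not. Within a region, neighbouring summits were 378 bp apart at the median (n = 253 spacings).

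Median enrichment away from the highest summit was low in each distance class, although single summits reached 7.11-fold to 9.38-fold, depending on the class. Summits up to 500 bp away had a median fold enrichment of 3.60 (n = 28), those over 500 and up to 1000 bp away 3.06 (n = 82), and those over 1000 and up to 2000 bp away 2.84 (n = 122). Further out, the medians were 2.82 over 2000 and up to 3000 bp (n = 89), 2.76 up to 5000 bp (n = 88) and 2.78 beyond that (n = 66). Of the 475 summits other than the highest, 39 reached a fold enrichment of 5 or more. Leaving out the highest summit of each domain lowers that count. The share over all ELF3 summits is not given here, so no lack or excess can be read from it. The peak caller lists a summit only where enrichment passed its threshold, which sets a floor under these medians. No summit here can exceed the highest of its domain, which sets a ceiling on them.

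**Figure D2:**
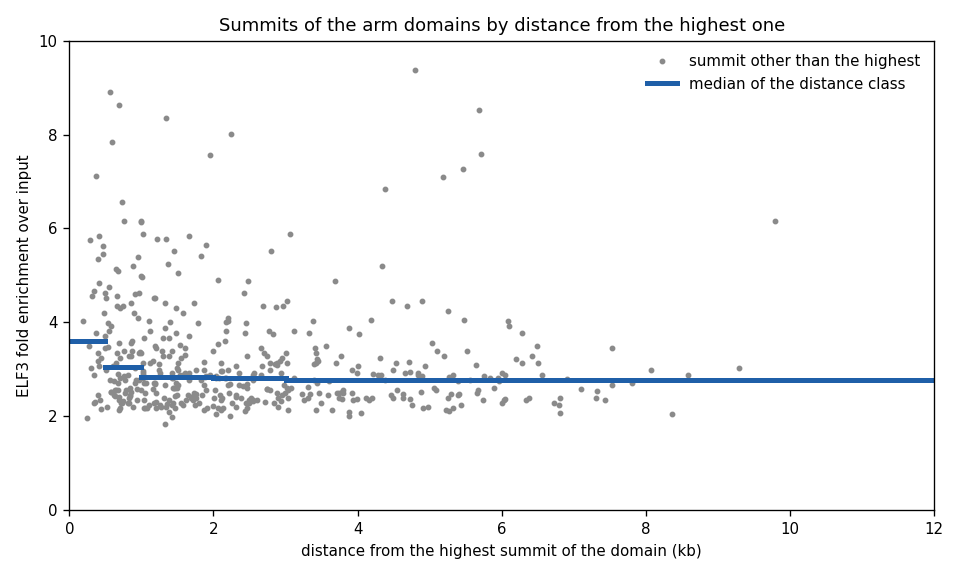
ELF3 fold enrichment over input of the 475 summits other than the highest of their domain, against distance from that summit in kb. Grey dots are summits and blue bars the median of each distance class, which goes from 3.60 up to 500 bp to 2.78 beyond 5000 bp.

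The highest region had no fixed place along a domain. It was the first or last region in 44 of the 79 domains, in 31 of the 44 domains of 3 regions and in 13 of the 35 larger ones. In a domain of 3 regions all but the middle one are first or last, and larger domains hold more inner regions. These counts therefore show no preference for the ends or the middle, and none was tested. The highest summit lay at 51.7% of the span at the median, with quartiles at 21.1% and 81.8%. Genes and strands were not used here, so no side could be called upstream.

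By the heights of their regions the domains fell along a range from a lone tall peak to a row of like peaks. In 23 domains the highest region had at least 3 times the fold enrichment of the second. The ratio was largest, 6.28, on chromosome 3 from 9766872 to 9769908. There the tall region is only 780 bp wide with 1 summit, at 15.4-fold (13.6 to 17.2, 289 tags), and its 3 neighbours had fold enrichments of 2.28, 2.45 and 2.34. In 10 domains the highest region was at most 1.2 times the second, and 9 of these 10 held no region at a fold of 5. In 23 domains the Poisson intervals of the highest and the second region overlapped. Overlap of intervals does not settle whether the regions differ in height, and that was not tested.

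In all, 8 arm domains held 2 regions with a fold enrichment of 5 or more and none held more, whereas 50 held exactly 1 and 21 held none. The background share of regions at that level was 21.6% over all 824. That is a share of regions and the counts are of domains, so no excess over background can be read from them. The clearest pair stood in domain A on chromosome 1, where regions of 16.3-fold and 9.38-fold had summits 4800 bp apart. Domain D on chromosome 3 held regions of 11.7-fold and 8.53-fold with summits 5685 bp apart. On chromosome 4 from 24909340 to 24919607, the regions at the ends had 7.21-fold (6.05 to 8.52) and 6.15-fold enrichment (5.09 to 7.37), with summits 9796 bp apart and a region of 4.46-fold between them. The other five were on chromosome 2 from 19613546, on chromosome 4 from 22366643 and from 24645453, and on chromosome 9 from 10842781 and from 20646052, with second regions between 5.20-fold and 5.78-fold.

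LUX was found in 9 of the 79 arm domains (11.4%, 5.34 to 20.5%), in each as a single region that lay wholly inside an ELF3 region. In the submitters' other call of both libraries it was found in 2 of 81 arm domains (2.47%), and the share over all loci of that call is not given here. In the call used here, the share with LUX over all 502 ELF3 loci was 2.99%. By region it was 9 of 301 (2.99%), against 1.82% of all 824 ELF3 regions. On the arms, loci of 1 or 2 regions held LUX in 3 of 356 cases (0.843%, 0.174 to 2.44%), and near the centromeres 3 of 7 domains did (42.9%, 9.90 to 81.6%). The 9 LUX regions are 5.08% of the 177 in the LUX list and 9 of the 15 that overlap any ELF3 region. Both lists were called against the same input library, and loci are not replicates, so these shares were set side by side without a test.

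A domain held more ELF3-covered sequence than other arm loci, and its highest peak was mostly taller. Both measures can rise with the number of regions, by which the domains were chosen. The 79 domains covered 232.4 kb with ELF3 regions and held 3.87 LUX regions per 100 kb (Poisson interval 1.77 to 7.35), and arm loci of 1 or 2 regions covered 239.3 kb and held 1.25 per 100 kb (0.259 to 3.66). These intervals overlap. A highest fold enrichment of 10 or more was reached by 30 of the 79 domains (38.0%), by 15 of 356 smaller arm loci (4.21%) and by 10.6% of all loci. Among those tall loci, LUX was present in 8 of 30 domains (26.7%, 12.3 to 45.9%) and in 3 of 15 smaller arm loci (20.0%, 4.33 to 48.1%). The intervals of these shares overlap too. Whether covered sequence or height accounts for the LUX shares was not tested. Below a fold of 10, it was present in 1 of 49 domains, in 0 of 62 arm loci of 2 regions and in 0 of 279 arm loci of 1 region.

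**Figure D3:**
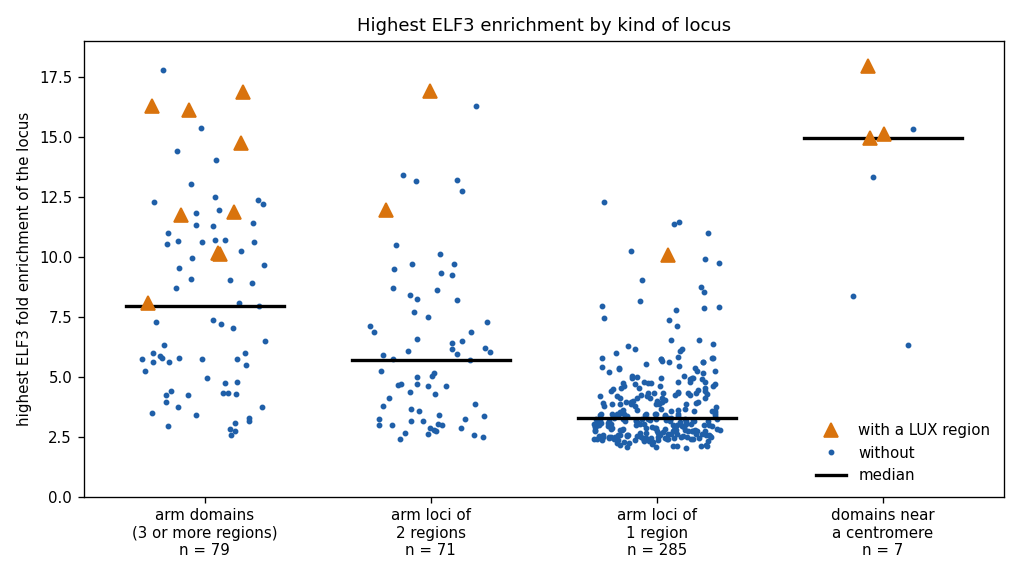
Highest ELF3 fold enrichment over input of each locus, by kind of locus, with the 79 arm domains at the left. Orange triangles are loci with a LUX region, blue dots loci without, and black bars medians (7.95, 5.67, 3.29 and 14.9 from left to right). All but 1 of the triangles lie above 10.

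Most of the 9 domains with LUX were long and rich in summits. Their span was 8345 bp at the median, against 4522 bp in the 70 domains without LUX, and their summits numbered 13 at the median, against 5. The shortest of the 9 was below both of the latter medians, with 4432 bp and 4 summits. ELF3 regions covered 6862 bp of a domain with LUX at the median, against 2162.5 bp without, so a LUX region had more sequence to overlap. Their highest fold enrichment was 11.9 at the median (lowest 8.06), against 6.75 in the domains without LUX (lowest 2.56, highest 17.8). The second-highest region also stood higher, at 4.46-fold against 3.16-fold. Of the 20 arm domains with most summits, 7 held LUX. The groups overlap in each of these measures, and a LUX region can be called only where LUX tags passed a threshold of their own.

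Domain A, on chromosome 1 from 4334362 to 4345983, had the most regions of the 9, with 8, and 21 summits over 11622 bp. Its highest region, from 4341515 to 4343971, had 16.3-fold ELF3 enrichment (14.5 to 18.2, 306 tags), and the LUX summit at 4343082 lay 27 bp from that of ELF3, with 3.62-fold LUX enrichment (2.68 to 4.79, 46 tags). The second ELF3 region, from 4335948 to 4338992, held 7 summits with up to 9.38-fold enrichment (8.05 to 10.9, 176 tags) and no LUX region. The other six regions had fold enrichments from 2.39 to 3.29.

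Domain B, on chromosome 1 from 8949006 to 8957350, had the highest ELF3 value of the 9. Its wide region, from 8952512 to 8957350, held 8 summits with up to 16.8-fold enrichment (15.04 to 18.8, 317 tags), and the LUX summit lay 45 bp from the highest with 3.77-fold enrichment (2.81 to 4.97, 48 tags). The neighbouring regions had 4.03-fold and 2.18-fold ELF3 enrichment. Domain C, on chromosome 1 from 39073840 to 39081829, was sparse, with 3 of its 4 regions at 2.39-fold and the remaining region at 11.9-fold (10.4 to 13.5). LUX lay 98 bp from the summit of that tall region, with 3.01-fold enrichment (2.16 to 4.09).

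Domain D, on chromosome 3 from 3733380 to 3745530, was the longest of all 79 and differed from most in where LUX lay. Its highest region, from 3737235 to 3742626, had 12 summits with up to 11.7-fold enrichment (10.3 to 13.3, 246 tags) and no LUX region. LUX was called 5631 bp from that summit, in the second region, from 3742960 to 3745530, which had 8.53-fold ELF3 enrichment (7.45 to 9.73, 221 tags). There the LUX summit lay 54 bp from the summit of ELF3, with 2.49-fold enrichment (1.77 to 3.41, 36 tags), the lowest LUX value among the 9. The local input background under the second ELF3 region was 1.41 times the genome-wide one, and under the highest 1.12 times, which lowers the fold enrichment of the second relative to its tags.

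Domain E, on chromosome 3 from 32429742 to 32437348, began with its tall region of 16.1-fold enrichment (14.3 to 18.01, 303 tags), and its other four regions followed on 1 side with 4.09, 2.55, 3.08 and 2.39-fold. LUX lay 19 bp from the highest ELF3 summit, with the highest LUX enrichment among the 9, 3.98-fold (2.99 to 5.19, 51 tags). Domain H, on chromosome 10 from 22070354 to 22078730, was covered by ELF3 regions over 91.1% of its span, the most of all 79. Its central region had 14.7-fold enrichment (13.0 to 16.6), with LUX 42 bp from the summit at 3.24-fold (2.35 to 4.36), and its neighbours had 4.51-fold and 4.04-fold.

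Domains F and G lie on chromosome 9, from 20646052 to 20651185 and from 20884929 to 20896787. Domain F held regions of 3.13, 5.78 and 10.1-fold enrichment, and LUX lay in the last, 48 bp from the ELF3 summit, with 2.93-fold enrichment (2.10 to 4.002). Domain G had the most summits of all 79 domains, 24 in 6 regions. Its highest region, 4250 bp wide, had 10 summits with up to 10.1-fold enrichment (8.79 to 11.6), and LUX lay 34 bp from the highest with 2.69-fold enrichment (1.94 to 3.65). The other five regions of domain G had fold enrichments from 2.29 to 4.46.

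Domain I, on chromosome 11 from 20186162 to 20190593, was the shortest of the 9. LUX lay in its middle region, which had 4.01-fold ELF3 enrichment (3.18 to 4.98, 78 tags), 390 bp from the nearest ELF3 summit and 1001 bp from the highest, which had 8.06-fold (6.83 to 9.44, 151 tags). LUX enrichment there was 2.70-fold (1.90 to 3.74, 34 tags), from the fewest LUX tags among the 9.

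**Figure D4:**
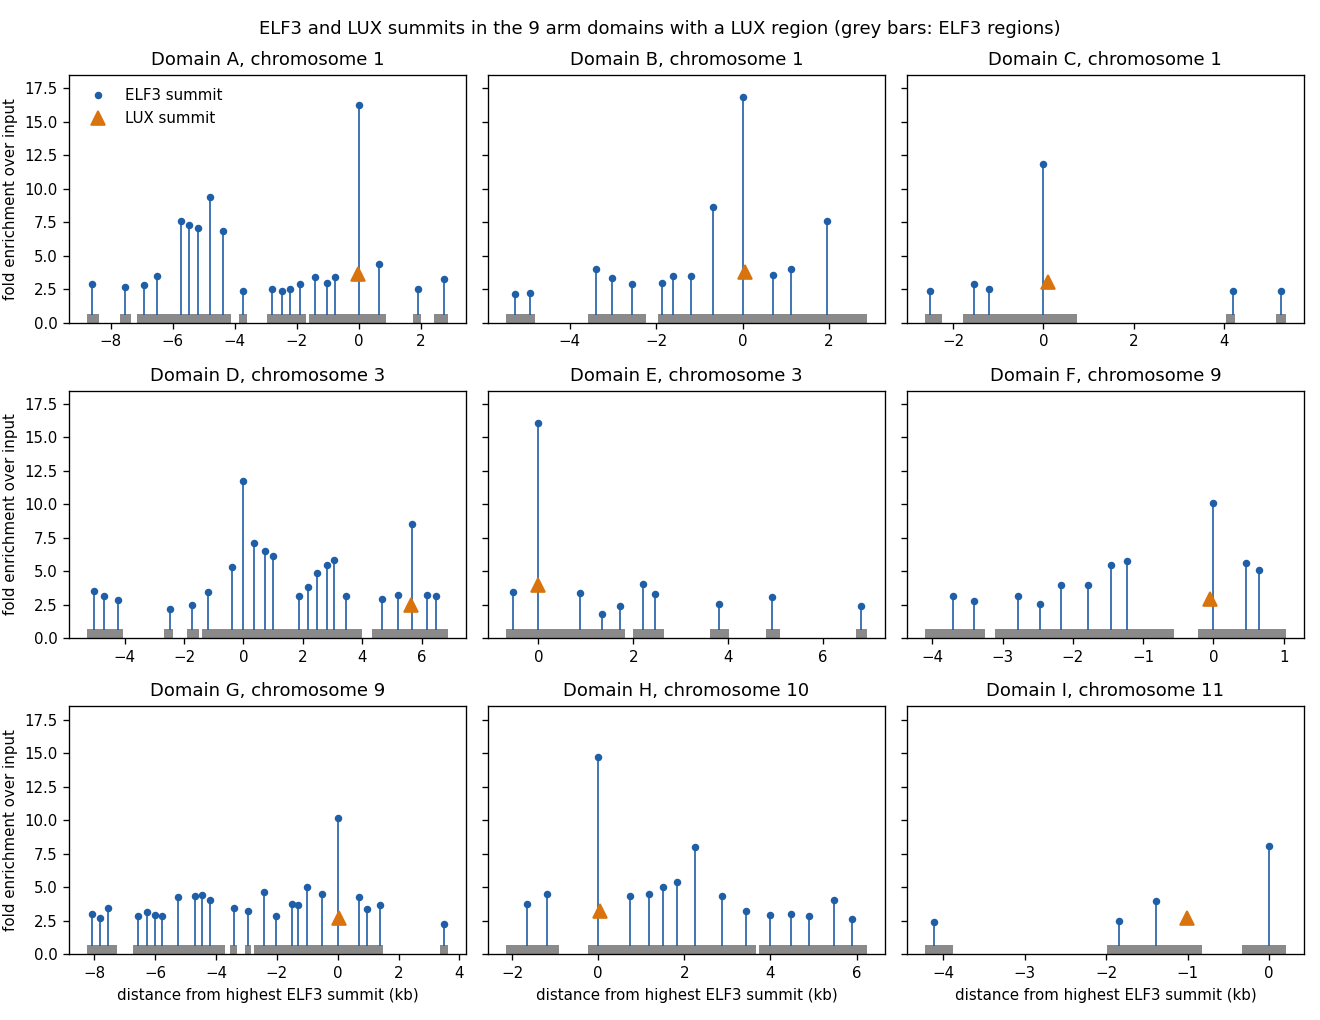
ELF3 and LUX summits in the 9 arm domains with a LUX region, lettered A to I in genome order, as fold enrichment over input against distance from the highest ELF3 summit in kb. Blue stems are ELF3 summits, orange triangles LUX summits and grey bars the extent of ELF3 regions. The triangle stands at 0 kb in 7 panels, at the second-tallest region in D and beside a lower summit in I.

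In 7 of the 9 domains LUX thus lay in the highest ELF3 region, and in 8 of the 9 within 100 bp of an ELF3 summit. The distance to the nearest ELF3 summit was 45 bp at the median. Neighbouring summits within a region lay 378 bp apart at the median, which limits how far a position between them can lie from a summit. The same measures for LUX regions in other ELF3 loci are not given here, so these counts cannot be called particular to the domains. LUX enrichment ran from 2.49-fold to 3.98-fold with a median of 3.01, and the median of the 168 LUX regions outside these domains was 3.06. The Poisson intervals of the 9 overlap one another. Of the 9 LUX calls, 2, in domains B and E, were found again in the submitters' other LUX call. There tags were extended to 76 bp instead of 122 bp, and the tags themselves were 75 bp long. The share of all 177 LUX regions found again is not given here, so 2 of 9 cannot be set against the whole list.

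Among the 70 domains without LUX, the tallest was on chromosome 9 from 16456330 to 16461268, which was also the tallest of all 79. Its region from 16458040 to 16460898 had 17.8-fold enrichment (15.9 to 19.8, 335 tags), and its other four regions, packed on both sides with gaps of 84 to 166 bp, had 3.19, 2.68, 2.40 and 2.98-fold. On chromosome 2, from 5468280 to 5473784, a region of 14.0-fold (12.4 to 15.8) stood among regions of 3.53, 2.87 and 2.50-fold. Also on chromosome 2, from 19613546 to 19617131, the region of 14.4-fold (12.7 to 16.2) was preceded by regions of 2.98-fold and 5.78-fold. Enrichment in these 3 domains was within or above the range of 8.06 to 16.8-fold in the domains with LUX.

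Other domains without LUX had many regions. On chromosome 7, the domain from 28727269 to 28738096 held 8 regions over 10828 bp, and 7 of them had fold enrichments from 2.05 to 3.29. The eighth, from 28734024 to 28736610, reached 9.96-fold (8.59 to 11.5, 187 tags), with further summits of 8.90-fold and 8.35-fold 567 and 1337 bp away. The domain from 25711035 to 25719588 on the same chromosome held 7 regions, led by a narrow one of 8.90-fold (7.61 to 10.3) and a wider one of 4.89-fold. A further domain on chromosome 7, from 22313650 to 22323550, held 6 regions and reached 13.0-fold (11.5 to 14.6, 273 tags), while its next highest region had 3.24-fold enrichment. On chromosome 10, from 19629094 to 19634826, 6 regions of 2.39 to 3.82-fold led up to a last region of 10.2-fold (8.84 to 11.8). On chromosome 9, from 10842781 to 10849669, the 6 regions held 10.5-fold (9.13 to 12.1), 5.25-fold and 4.35-fold enrichment in neighbouring regions and 2.01 to 2.83-fold in the outer ones.

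The nearest LUX region to a domain without LUX lay 1581 kb away at the median (n = 70), and within 25 kb of 3 of them. The closest case was on chromosome 8. The domain there, from 4607759 to 4615988, held 18 summits in 4 regions with up to 6.32-fold enrichment and no LUX, and 7493 bp further on lay a single ELF3 region from 4623482 to 4629550 with 10.1-fold enrichment. A LUX region of 2.96-fold lay in that second locus, 9670 bp from the domain. The other two LUX regions, both on chromosome 3 and 18774 and 20906 bp away, overlapped no ELF3 region.

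Most domains stood alone. The nearest other ELF3 locus was 124.9 kb away at the median, against 148.2 kb for arm loci of 1 or 2 regions. Domains were nearest to each other on chromosome 2, where 6962 bp separated the domain from 19598912 to 19606583, with at most 3.74-fold enrichment, from that at 19613546 with 14.4-fold. On chromosome 9, 21847 bp separated the domain from 16428438 to 16434482, with at most 3.29-fold enrichment and 14.4% of its span covered, from the tallest domain of all.

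Domains occurred on all 12 chromosomes. Chromosome 7 had 12, chromosomes 1 and 2 had 11 each, chromosome 3 had 10 and chromosome 4 had 9, whereas chromosomes 5 and 11 had 2 each. On chromosome 7, 12 of 33 arm loci were domains (36.4%, 20.4 to 54.9%), on chromosome 3 it was 10 of 71 (14.1%, 6.97 to 24.4%), and over all arms 79 of 435 (18.2%). The intervals of the chromosomes overlap. LUX was held by 3 of the 11 domains on chromosome 1, 2 of 10 on chromosome 3 and 2 of 6 on chromosome 9. It was also held by 1 of 3 on chromosome 10 and 1 of 2 on chromosome 11. The other chromosomes had none, among them chromosome 7 with 12 domains and chromosome 2 with 11. With LUX in 9 of all 79 domains (11.4%), these counts are too small to set chromosomes apart. The 3 domains on chromosome 12 were low, with highest fold enrichments of 3.49, 4.24 and 2.93.

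The local input background behind the fold enrichment differed little between the domains and other arm loci. At its lowest it was 1.00 times the genome-wide value in each kind of locus, so input below that value cannot be seen in it. At the highest summit it was within 0.01 scaled tags of the genome-wide value in 46 of 79 domains (58.2%) and in 210 of 356 smaller arm loci (59.0%). It was highest on chromosome 2 from 829107 to 832302, at 2.04 times the genome-wide value, where 183 tags gave a fold enrichment of 4.95. In the domains with LUX it was at the genome-wide value in 7 of 9 and at most 1.12 times it.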

How the data were processed

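The data are peak lists of 1 ELF3 and 1 LUX ChIP-seq library. BWA, MACS2, deepTools and the build IRGSP-1.0 are named, without roles, per the submitters' processing notes, and no settings of the aligner were at hand. The caller was MACS 2.2.7.1, run against 1 input library with a q-value threshold of 0.05 and an effective genome size of 210 Mb, per the file headers, with ELF3 tags extended to 202 bp. The deposited pileup is a coverage signal in scaled tags at the summit, and divided by its scale factor it gave whole tags to within 0.01. The deposited fold enrichment is a ratio to local input background, and the deposited −log10 q and −log10 p values are the caller's. Before filtering, the headers give 24294237 ELF3, 23370643 LUX and 15833936 input tags, with duplicate rates of 24%, 14% and 7%.

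Each library was deposited in 2 calls, with a lower bound of the model fold of 2 (used here) or 5 (an alternative). A region's value is that of its most enriched summit. Overlap means at least 1 bp. Local background was recovered from pileup and fold enrichment. Centromere positions are those of the membership rule and were not checked against a sequence.

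The domains and the measures described were chosen with earlier results of these data known. Domains described singly are all with LUX, the 8 of highest fold enrichment, the 5 with most regions and the 5 longest; others were chosen after their values were seen. Of 3 domains tied at 6 regions, the one with the lowest start coordinate was taken into the 5. Joining was tested on simulated peak lists. Alternatives were the other call, other joining gaps, a stricter q-value, other limits on regions and centromere distance, and overlap by summits. No genome or annotation of IRGSP-1.0 was used here, so the planned comparisons with gene starts, genes and motifs were not made and no sequence is shown. Scripts ran under Python 3.11.15 with scipy 1.17.1, pandas 2.3.3, numpy 2.4.6 and, for plots, matplotlib 3.10.9.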

Additional observations from a re-analysis of the deposited data

Results flagged for a closer look

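The submitters' other ELF3 call, which was not used for the values above, held 5 arm domains that overlap none of the 79. Each has 3 regions there and 2 in the main call. They lie on chromosome 2 from 23756949 to 23760721, on chromosome 3 from 10173267 to 10175886 and from 24548593 to 24552028, on chromosome 7 from 2545144 to 2547830 and on chromosome 12 from 25449005 to 25451471, with highest fold enrichments of 9.22, 5.99, 7.11, 6.74 and 8.12. None of the LUX regions of that call lay in them. Conversely, 3 of the 79 domains had 2 regions in the other call, with highest fold enrichments of 2.72 on chromosome 4 from 30443232, 4.25 on chromosome 11 from 28932723 and 4.24 on chromosome 12 from 4535478.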

How the results depend on the processing

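Of 59 values recomputed under alternatives, 45 stayed within a set margin and 14 moved further. The margin was 1.5 times the count reported, or the counting interval of the share. For the median fold enrichment it was the Poisson interval of the domain of median fold (6.81 to 9.23). That interval does not measure how far the median over domains could vary. With ELF3 regions of a −log10 q of 10 or more there were 9 domains with 28 regions, a median highest fold enrichment of 10.5, and 3 LUX regions (33.3% of domains), 2 of them in the highest region. With 4 or more regions required there were 35 domains with 169 regions, a median of 9.64, and 5 LUX regions, 4 of them in the highest region. In the other call, 2 LUX regions lay in arm domains (2.47%), both in the highest region. That call held 81 arm domains, and its LUX list gave 2 regions within the 79 as well. Joining over 2 or 10 kb gave 67 and 86 domains. Closing gaps up to the fragment length before counting, an alternative chosen after seeing the data, left 59 domains with 7 LUX regions. No paired analysis was possible because each group holds 1 library. Other distances to a gene start and other motif windows were not run, because no genome of the build was used. The 9 LUX calls rest on 34 to 51 tags each.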
